A study of Mus musculus with 6 samples.

Results

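The genes described here encode the H3K4 methyltransferase complexes, the enzymes that place methyl groups on lysine 4 of histone H3. They are 10 genes of the 21738 protein-coding genes compared: the catalytic subunits Kmt2a, Kmt2b, Kmt2c, Kmt2d, Setd1a and Setd1b, and the shared core subunits Wdr5, Ash2l, Rbbp5 and Dpy30. They were chosen by name, and their rows are those whose nearest promoter or annotated transcript belongs to one of them. The rule found 23 rows at 9 of the 10 genes, and Kmt2d had none. The rows come from CUT&RUN, in which an antibody directs a nuclease to cut out the DNA around its target, in prospermatogonia, the germ cells that give rise to spermatogonia. Per the labels all samples were male, at E16.5 (days of embryonic development), strain C57BL/6 and wild type for Taf4b. Gonads came from matings of mice homozygous for an Oct4-EGFP transgene (B6;129S4-Pou5f1tm2Jae/J), and cells were sorted by GFP. The labels name both GFP+ and GFP- fractions and do not say which one each library holds, so that the cells are prospermatogonia rests on the label of the samples. The labels do not say how many embryos went into a library or whether replicates came from separate animals. The 6 samples form 3 groups of 2 replicates: an antibody to TAF4b, an antibody to H3K4me3, and IgG. IgG was not analysed here, so no value below was compared with it here. Whether the authors' calls used it as a background is not given in the sources used here.

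The complexes share a plan, in which a SET-domain enzyme sits on a core of WDR5, RBBP5, ASH2L and DPY30. KMT2A and KMT2B act at promoters, KMT2C and KMT2D are known for monomethylation at enhancers, and SETD1A and SETD1B place much of the trimethylation at active promoters. H3K4me3 therefore is a product of these enzymes, and here it was read at their own genes. TAF4b is a subunit of TFIID, the factor that assembles RNA polymerase II at promoters. It is enriched in the germ line, and TFIID itself contacts H3K4me3 through its TAF3 subunit.

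The 4 lists differ widely in length, with 7861 and 848 TAF4b peaks and 64891 and 1730 H3K4me3 regions in replicates 1 and 2. Read totals were not given, so depth is unknown. Scores are the authors' own and serve here only to rank intervals within 1 list. The lowest and median scores were 6.45 and 14.9 (TAF4b replicate 1), 40.5 and 60.7 (TAF4b replicate 2), 16.4 and 46.2 (H3K4me3 replicate 1), and 96.0 and 111.2 (H3K4me3 replicate 2). As a check of the cell label, promoter intervals were counted at marker genes. In replicate 1, 4 of 8 germ cell markers had a TAF4b promoter peak (Dazl, Ddx4, Dnd1 and Mael) and 0 of 21 markers of Sertoli, Leydig, endothelial, smooth muscle and blood cells did, where the share of all protein-coding genes was 22.7%. An H3K4me3 promoter region was listed at 4 of 8 germ cell markers (Dazl, Ddx4, Mael and Dppa3) and at 10 of the 21 somatic markers, among them Sox9, Gata4 and Wt1. Both shares were near the 44.0% of all protein-coding genes, so the H3K4me3 list did not separate germ cell from somatic markers. In replicate 2 none of the 8 germ cell and none of the 21 somatic markers had a promoter interval for either antibody, which leaves those libraries without a check of this kind. Pou5f1, Nanos2 and Nanos3 had neither. The part of somatic cells in the H3K4me3 values below was not tested.

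Sequences under TAF4b peaks of member genes come first, because these are the places the rest of the account turns on. Each is read from GRCm39 on the strand of the gene, 5′ to 3′, and capitals mark matches to the short motifs named below. Bases annotated as a UTR in any transcript are left out, which shortens some peaks of 143 bases. Only runs of at least 40 bases are shown, so the peaks at Setd1a and Rbbp5 and the strongest Kmt2b peak are not printed. The Kmt2a peak is at chr9:44792715-44792857, and the Kmt2b peaks shown whole are the upstream one at chr7:30288942-30289084 and the one in intron 1 at chr7:30287547-30287689. The Kmt2c peak is at chr5:25704728-25704870. The parts at Ash2l and Dpy30 are chr8:26330823-26330894 and chr17:74623459-74623527. All 5 genes lie on the minus strand.
Kmt2a: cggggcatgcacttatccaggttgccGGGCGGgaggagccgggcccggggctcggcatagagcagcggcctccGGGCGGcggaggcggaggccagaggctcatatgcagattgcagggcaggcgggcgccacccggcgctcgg
Kmt2b, upstream peak: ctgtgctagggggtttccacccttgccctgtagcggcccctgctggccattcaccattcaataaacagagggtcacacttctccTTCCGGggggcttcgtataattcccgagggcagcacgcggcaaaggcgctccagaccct
Kmt2b, intron 1 peak: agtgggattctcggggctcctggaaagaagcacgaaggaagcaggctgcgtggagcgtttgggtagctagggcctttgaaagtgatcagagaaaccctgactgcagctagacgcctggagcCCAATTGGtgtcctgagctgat
Kmt2c: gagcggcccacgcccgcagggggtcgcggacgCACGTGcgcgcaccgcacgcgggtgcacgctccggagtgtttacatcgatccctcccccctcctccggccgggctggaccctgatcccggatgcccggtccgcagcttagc
Ash2l: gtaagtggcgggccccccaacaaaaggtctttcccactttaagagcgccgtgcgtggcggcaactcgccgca
Dpy30: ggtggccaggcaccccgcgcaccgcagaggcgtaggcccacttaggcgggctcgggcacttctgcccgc

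Kmt2d, Setd1b and Wdr5 had no TAF4b row in either list. For comparison, the 143 bases before their canonical starts are shown, from chr15:98769086-98769228 (Kmt2d, minus strand), chr5:123280113-123280255 (Setd1b, plus strand) and chr2:27405018-27405160 (Wdr5, plus strand).
Kmt2d: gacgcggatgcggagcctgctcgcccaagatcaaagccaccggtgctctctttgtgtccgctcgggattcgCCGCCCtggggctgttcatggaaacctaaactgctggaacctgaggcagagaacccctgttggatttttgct
Setd1b: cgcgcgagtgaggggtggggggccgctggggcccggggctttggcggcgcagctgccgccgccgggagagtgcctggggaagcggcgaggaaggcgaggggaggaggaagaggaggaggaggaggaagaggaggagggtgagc
Wdr5: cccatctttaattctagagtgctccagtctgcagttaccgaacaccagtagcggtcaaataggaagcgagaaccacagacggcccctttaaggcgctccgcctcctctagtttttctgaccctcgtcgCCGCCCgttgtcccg

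TAF4b promoter peaks were listed at 6 of the 10 genes in replicate 1: Kmt2a, Kmt2b, Setd1a, Ash2l, Rbbp5 and Dpy30. A promoter peak is one whose deposited class is promoter-TSS, with the gene taken from the transcript named there. The same was true of 22.7% of all protein-coding genes. In replicate 2 none of the 10 genes had one, where the share over all protein-coding genes was 3.12%. The mean over replicates was 3 ± 4.24 genes (SD, n = 2). H3K4me3 promoter regions were listed at 7 of the 10 genes in replicate 1, the same 6 and Wdr5, against 44.0% of protein-coding genes. In replicate 2 none was of the promoter class, against 4.14%, and the mean was 3.50 ± 4.95 genes (SD, n = 2). Both TAF4b and H3K4me3 promoter intervals were present in replicate 1 at 16.7% of protein-coding genes. Among genes with an H3K4me3 promoter region the share with a TAF4b promoter peak was 37.9%. Other definitions of a promoter interval were also counted. Counted within 1000 bp of a start by deposited distance, the TAF4b members were 6 and 0 in replicates 1 and 2, against 26.2% and 3.61% of protein-coding genes, and the H3K4me3 members were 8 and 1, against 66.4% and 6.52%. Counted by overlap with the window from 250 bp before to 50 bp after any annotated start, they were again 6 and 0 for TAF4b, against 26.6% and 3.90%, and 8 and 1 for H3K4me3, against 66.9% and 6.10%. By either of these definitions the H3K4me3 share in replicate 1, 8 of 10, was near that of all protein-coding genes. The counts rest on 1 library for each antibody. They also move with the length of the list. With replicate 1 reduced to the size of replicate 2, the TAF4b count went from 6 to 0. The H3K4me3 count went from 7 to 2, which were Kmt2a and Kmt2b. The share of all protein-coding genes on the reduced lists was not counted. No test was run on the member counts, because genes are not replicates and the members were chosen with earlier results known.

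**Figure D1:**
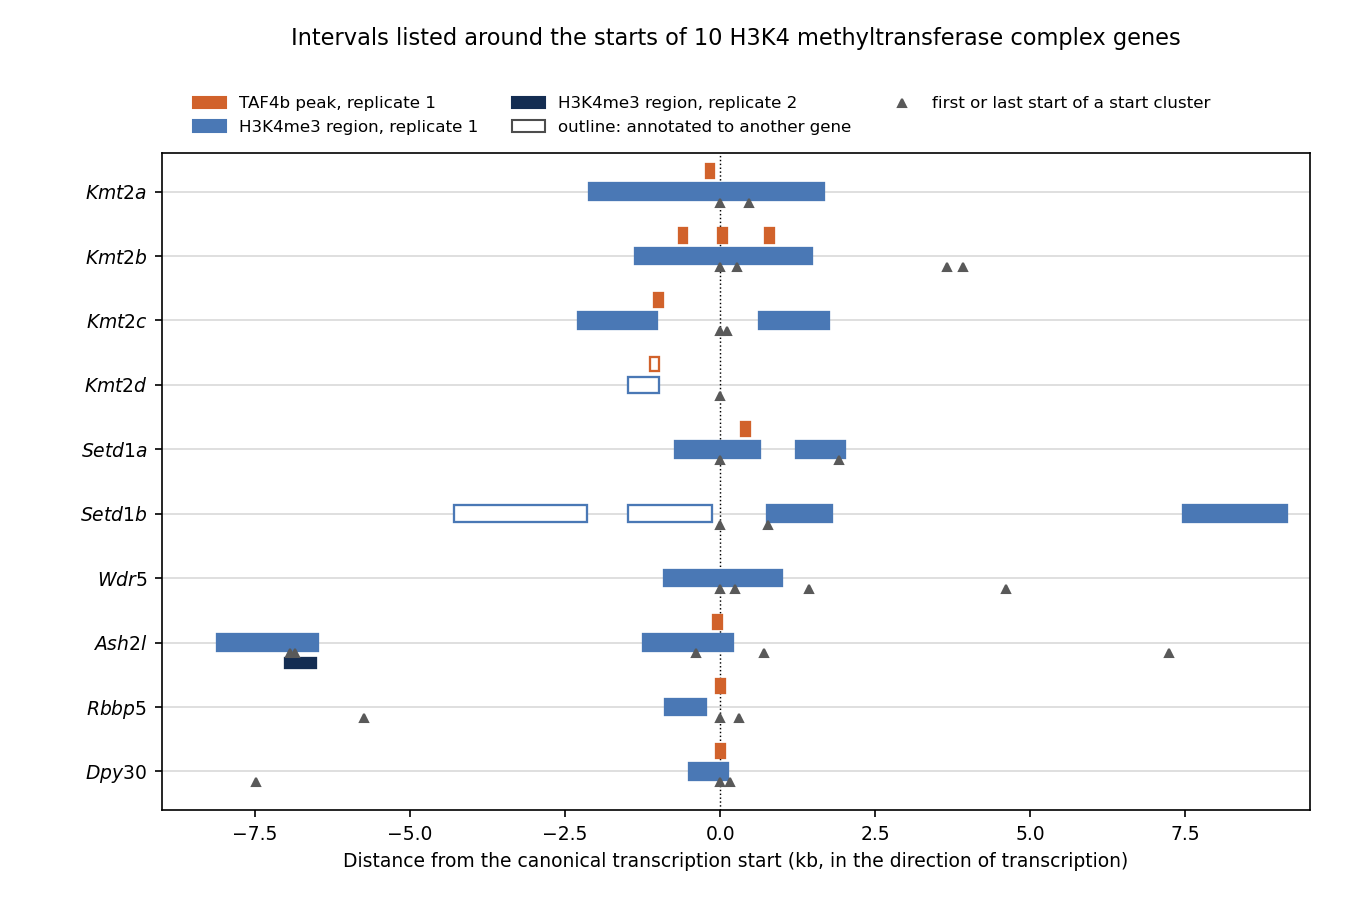
Intervals at the 10 genes, drawn to scale by distance in kb from the canonical start in the direction of transcription. Filled boxes are rows of the gene itself, and outlined boxes are annotated to a neighbour. No TAF4b replicate 2 peak is drawn because none was listed, and the only H3K4me3 replicate 2 region is at the upstream start of Ash2l.

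The pair KMT2A and KMT2B, whose genes are known as MLL1 and MLL2, had the strongest and widest H3K4me3 of the 10. At Kmt2a the H3K4me3 replicate 1 region spanned chr9:44790955-44794743, 3788 bp, with a score of 250.4. It ranked 269 of 64891 by score, in the top 0.415%, and 168 by width, in the top 0.259%. Among promoter regions alone its score stood in the top 1.06%. The region is annotated to Kmt2a, but its nearest deposited start is that of Gm39326, a gene on the opposite strand. The Kmt2a TAF4b peak in replicate 1 had a score of 16.9, rank 3159 of 7861, and a deposited distance of -192 bp. It lay near the middle of that region, 1957 bp from its upstream edge and 1831 bp from its downstream edge. Neither replicate 2 list held a row for Kmt2a. Thus a region near the top of its list contained a TAF4b peak that stood 40.2% from the top of its own.

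Kmt2b was the only member with more than 1 TAF4b peak. Its H3K4me3 region, chr7:30286938-30289785, was 2847 bp wide with a score of 234.0 (rank 392, top 0.604%, or top 1.56% of promoter regions). All 3 Kmt2b TAF4b peaks lay wholly inside it. The strongest, chr7:30288304-30288446, had a score of 23.3, rank 1634 of 7861, the highest TAF4b score among the 10 genes. Its deposited distance is -224 bp, whereas in the later annotation used here its centre falls at 39 bp, in the UTR of exon 1. The upstream peak, centred at -599 bp, had a score of 9.43 (rank 6312) and its nearest deposited start is that of the microRNA gene Mir3569. The downstream peak, chr7:30287547-30287689, fell in intron 1 with a score of 7.94 (rank 7270). Among protein-coding genes with a TAF4b promoter peak, 5.89% had 2 or more, as Kmt2b did. No Kmt2b row was listed in replicate 2.

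Kmt2c and Kmt2d, which encode the large enhancer-associated enzymes MLL3 and MLL4, had no interval at their starts in any list. At Kmt2c, 2 H3K4me3 replicate 1 regions flanked the canonical start instead. The upstream region, chr5:25704829-25706103, had a score of 77.5 (rank 15905), and the region in intron 1, chr5:25702056-25703190, had a score of 80.5 (rank 14823). Between them lay 1638 bp with no region, from -1019 to 620 bp around the start. The Kmt2c TAF4b peak, deposited as intergenic at -1018 bp with a score of 12.9 (rank 4578 of 7861), shared 42 bp with the edge of the upstream region. GC content was 75.3% in the gap, against 44.3% in the upstream region and 52.5% in the intron region. In the 500 bp around the Kmt2c start it was 82.4%, and only 0.0460% of protein-coding genes had a higher value. The part of base composition in the gap was not tested, and starts inside H3K4me3 regions had a higher median GC content (61.2%) than the others (49.2%).

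Kmt2d was the only gene of the 10 without a row. The nearest intervals lay about a kilobase before its start and were annotated to 5730414N17Rik, a noncoding RNA gene on the opposite strand. They were a TAF4b peak centred at -1054 bp (chr15:98770068-98770210, score 12.9) and an H3K4me3 region centred at -1230 bp (chr15:98770065-98770565, score 20.9). That region ranked 58659 of 64891. Both intervals were in replicate 1, and their nearest deposited start is that of Gm49437. They fall outside the rule that defines the rows of Kmt2d. The next H3K4me3 replicate 1 region lay 39336 bp downstream of the start, near the end of the gene.

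Setd1a and Setd1b encode paralogous enzymes, and their starts differed in these lists. Setd1a had an H3K4me3 replicate 1 region over the start (chr7:127375116-127376488, score 79.0, rank 15530) and a narrower one further into the gene (chr7:127377070-127377852, score 62.6, rank 22114). Its TAF4b peak, chr7:127376176-127376318, had a score of 19.9 (rank 2358 of 7861) and a deposited distance of -74 bp to the start of a shorter transcript. The peak lay at 405 bp from the canonical start, in the UTR of exon 1, and inside the first region.

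Setd1b had no TAF4b peak. Its canonical start fell in a gap of 889 bp between 2 H3K4me3 replicate 1 regions, from -133 to 757 bp, with a GC content of 73.9%. The region after the gap, chr5:123281013-123282053, had a score of 59.6 (rank 23664) and holds a further annotated start of Setd1b, at chr5:123281020. The region before the gap had a score of 85.0 and was annotated to AI480526, a gene on the opposite strand. A further Setd1b row, chr5:123287711-123289399, lay in intron 6, 8299 bp into the gene, and was both stronger (score 93.9, rank 10914) and wider (1688 bp) than the one near the start. Its ratio of observed to expected CpG was 0.233, the lowest of the member H3K4me3 rows. No replicate 2 row was listed for either gene.

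The core subunits had an H3K4me3 promoter region at all 4 genes in replicate 1 and a TAF4b promoter peak at 3, against 44.0% and 22.7% of protein-coding genes. With 4 genes, and a region within 1000 bp of a start at 66.4% of protein-coding genes, nothing particular to the core is read from these counts. WDR5, the scaffold that binds the catalytic subunit, was the exception for TAF4b. Its gene had a single H3K4me3 region over the start (chr2:27404256-27406154, 1898 bp, score 129.7, rank 4533 of 64891, top 6.99%, or top 17.7% of promoter regions). That is the third highest H3K4me3 replicate 1 score by gene, at a promoter with no TAF4b row in either list.

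Ash2l, whose product stimulates the catalytic subunit together with RBBP5, has separate groups of annotated starts. Of its 71 transcripts in the annotation, 38 start in the group that holds the canonical start and 29 start in a group upstream of it, the farthest of them at -6934 bp. H3K4me3 replicate 1 had a region at each, with close scores of 116.3 (chr8:26330603-26332050, rank 6272) and 120.7 (chr8:26337295-26338921, rank 5675). The TAF4b peak, with a score of 20.8 (rank 2102 of 7861) and a deposited distance of -32 bp, was at the downstream group only. The single member row of H3K4me3 replicate 2, chr8:26337319-26337819 with a score of 131.4 (rank 424 of 1730), was at the upstream group only. Its deposited class is intron, at a deposited distance of 153 bp, so it is not counted as a promoter region above although it spans annotated starts. These 2 start groups thus differed by 1 interval each, and the remaining start groups of Ash2l had no interval.

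At Rbbp5, which encodes a core subunit that contacts the nucleosome, the TAF4b peak and the H3K4me3 region did not touch. The peak, chr1:132405016-132405158, was centred at 2 bp from the canonical start with a score of 14.4 (rank 4007 of 7861). The H3K4me3 replicate 1 region, chr1:132404191-132404856, ended 160 bp before the peak and had a score of 44.7 (rank 33107 of 64891), the lowest of the member promoter regions. Its nearest deposited start is that of 6030442K20Rik, which is transcribed the other way from -265 bp, and no region followed the Rbbp5 start for 43031 bp.

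Dpy30 encodes the smallest core subunit, which binds ASH2L. Its TAF4b peak, chr17:74623385-74623527, sat 2 bp from the start with a score of 10.9 (rank 5540 of 7861), the lowest when the strongest promoter peak of each of the 6 genes is taken. The H3K4me3 replicate 1 region over the Dpy30 start, chr17:74623338-74623967, was 629 bp wide with a score of 53.7 (rank 27088). The centre of the TAF4b peak lay 118 bp from the downstream edge of that region. At the other 4 genes whose promoter peak lay inside a region, the peak centre was farther from either edge. A second annotated start of Dpy30, at -7481 bp, had no interval in any list.

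TAF4b promoter peaks overlapped an H3K4me3 region by at least 1 bp at 5 of the 6 genes that had one in replicate 1, all but Rbbp5. Over all protein-coding genes with a TAF4b promoter peak the share was 87.4%. In replicate 2 there was no member peak to compare. Canonical starts lay inside an H3K4me3 replicate 1 region at 6 of the 10 genes, against 56.2% of protein-coding genes. The 4 outside were Kmt2c, Kmt2d, Setd1b and Rbbp5.

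**Figure D2:**
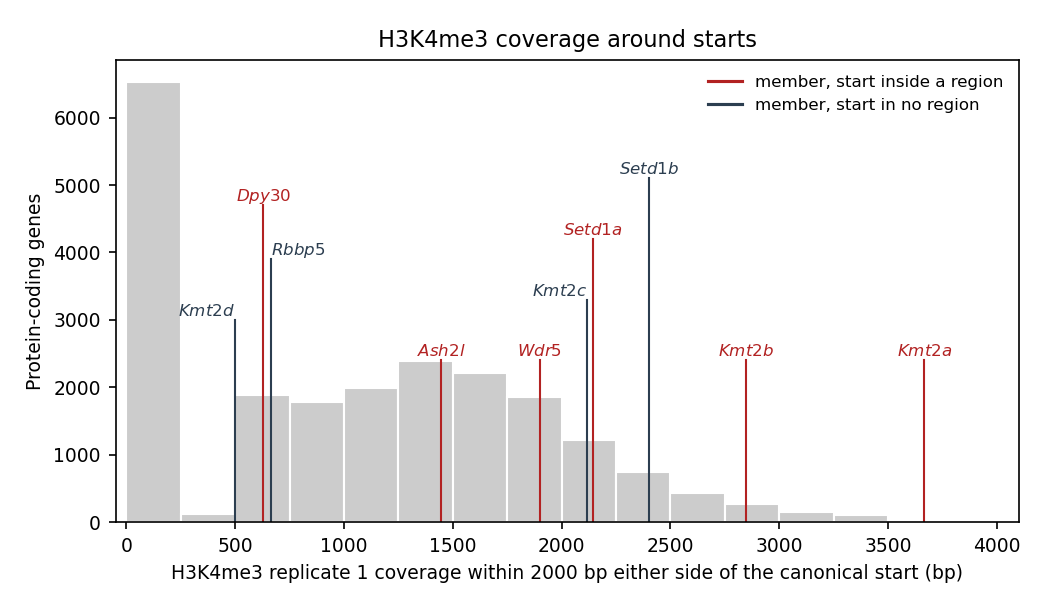
H3K4me3 replicate 1 coverage in bp within 2000 bp either side of the canonical start. Grey bars count protein-coding genes, and each line is a member, coloured by whether its canonical start lies inside a region, with a height that carries no value. Kmt2a (3667 bp) and Kmt2b (2848 bp) stand at the right, and Kmt2d (501 bp), Dpy30 (630 bp) and Rbbp5 (666 bp) at the left.

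Within 2000 bp either side of the canonical start, H3K4me3 replicate 1 regions covered a median of 2008 bp at the 10 genes and 1075 bp over 21738 protein-coding genes. Regions annotated to a neighbour are included, as in part of the coverage at Setd1b and all of it at Kmt2d. Only 0.230% of genes had more coverage than Kmt2a and 2.11% more than Kmt2b. At the other end, 65.4% had more than Kmt2d and 64.1% more than Dpy30. Setd1b (2401 bp) and Kmt2c (2117 bp) ranked above most genes although their canonical starts lay in no region. An annotated start on the opposite strand lay within 1000 bp at 6 of the 10 genes (Kmt2a, Kmt2b, Kmt2c, Setd1b, Wdr5 and Rbbp5), against 34.5% of protein-coding genes. None of these was a protein-coding start, which 11.1% of all genes have.

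**Figure D3:**
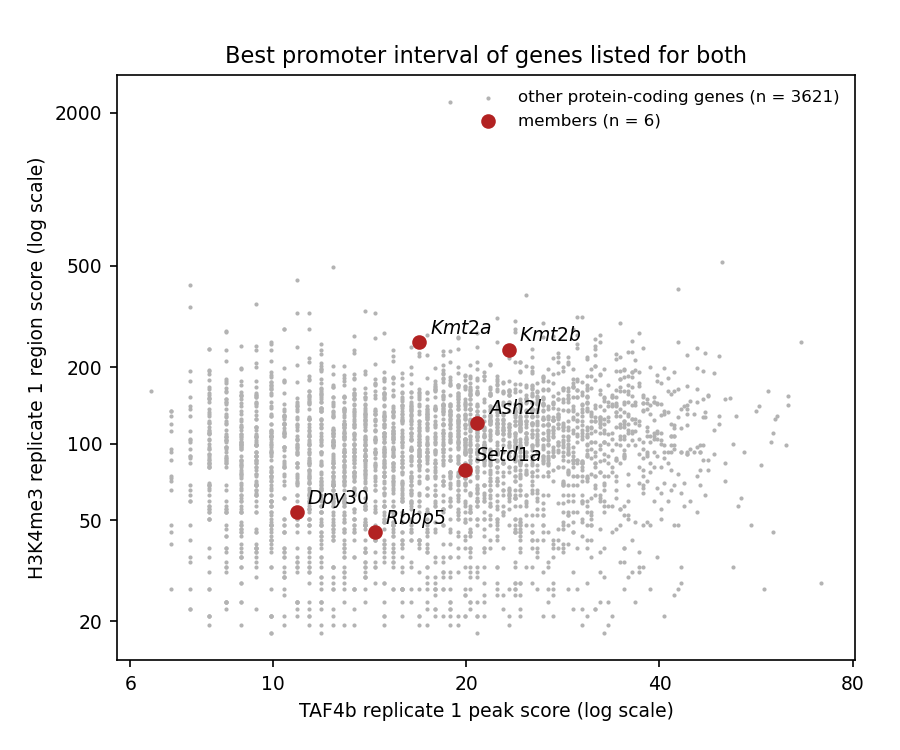
Scores of the strongest TAF4b (x) and H3K4me3 (y) promoter interval of replicate 1, both on log scales, for the 3627 protein-coding genes that have both. The intervals of a gene need not overlap, and for Ash2l the H3K4me3 score is that of the upstream start group. The 6 members run from 44.7 to 250.4 for H3K4me3, with Kmt2a and Kmt2b highest, and from 10.9 to 23.3 for TAF4b.

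TAF4b scores were compared among genes that had both intervals. With the strongest promoter peak per gene, the 6 members had a median of 18.4, and the 3627 protein-coding genes with both intervals also had a median of 18.4. The order from high to low was Kmt2b, Ash2l, Setd1a, Kmt2a, Rbbp5 and Dpy30, and with 1 list nothing shows whether neighbours in it differ. For H3K4me3 the medians were 99.85 and 93.9. The protein-coding genes most like Kmt2b, by the summed difference of their percentiles in these lists and with no replicate 2 promoter interval, were Gsk3a (scores 23.3 and 232.5), Septin2 (23.3 and 217.6) and Zbtb32 (23.8 and 275.8). Zbtb32 is the gene that ends just before the Kmt2b start. The 7 member promoter peaks of TAF4b replicate 1 had scores from 9.43 to 23.3, and none overlapped a replicate 2 peak. Of all 3695 promoter peaks in that score range, 3.25% did (95% Wilson interval 2.72 to 3.87, counting error only), against 10.6% of all promoter peaks. Of 9 member H3K4me3 promoter regions, 1 (the upstream region of Ash2l) overlapped a replicate 2 region, and 9.14% (8.60 to 9.71) did in the same score range, against 7.47% of all promoter regions. The lengths of the lists cap these shares, because replicate 2 holds 848 TAF4b peaks beside 5756 promoter peaks in replicate 1, and 1730 H3K4me3 regions beside 13454 promoter regions. The overlapping promoter intervals of replicate 1 numbered 608 for TAF4b and 1005 for H3K4me3, where replicate 2 itself lists 748 and 1037 promoter intervals. A member interval missing from replicate 2 therefore says little about the gene in most cases. The H3K4me3 regions of Kmt2a and Kmt2b, ranked 269 and 392 of 64891, remain when replicate 1 is reduced to the size of replicate 2. Neither had a replicate 2 row, and the reason was not tested.

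Motifs were searched on both strands in the whole 143 bases of each peak, and they are descriptions of letters, not of bound factors. The GC box GGGCGG was found in 2 of 9 member peaks, with 2 copies in the Kmt2a sequence above, and in 48.5% of 7852 TAF4b replicate 1 peaks on the main chromosomes. The CCAAT box, with the letters CCAAT, was found in 1 of 9, the intron 1 peak of Kmt2b, where copies on both strands overlap, against 39.5%. The ETS core CCGGAA was in 1 of 9, the upstream Kmt2b peak, against 16.3%. The E box CACGTG was in the Kmt2c peak alone, against 7.25%. The core TGCGCA of the NRF1 motif was in 1 of 9, against 11.3%, and the YY1 motif GATGGCG was in 1 of 9, against 2.92%, both in parts not printed. The cyclic AMP response element TGACGT was in none, against 10.6%. The TATA box with the letters TATAAA was in none, against 1.87%. Part of the GFY motif, ACTACAA, was in none, against 3.20%. In the 143 bases before the starts of genes without a peak, GGGCGG was present at Kmt2d and Wdr5, and in 32.2% of such windows over all protein-coding genes. Member peaks had a median GC content of 71.3% and a median ratio of observed to expected CpG of 1.03, against 62.9% and 0.777 for all peaks. These are 9 peaks at 7 genes, and 3 of them lie at Kmt2b. A separate set of 32851 RefSeq promoter sequences held 10 promoters of 7 member genes. There GGGCGG was in 5 of 10, against 35.7%, and TGCGCA in 3 of 10, against 7.76%. CCAAT was in 1 of 10, against 37.4%, CCGGAA was in 1 of 10, against 14.9%, and the remaining motifs were in none.

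The other genes that add, use or remove H3K4 methylation were counted in the same way. Among 12 partner subunits, 5 had a TAF4b promoter peak in replicate 1: Psip1 and Hcfc1, which tether or join KMT2A complexes, Kdm6a and Paxip1, which belong to the KMT2C and KMT2D complexes, and Bod1. Among 7 other methyltransferase or SET-domain genes, 2 did, Setd7 and Prdm9. Among 6 H3K4 demethylases, 4 did: Kdm1a, Kdm1b, Kdm5a and Kdm5c. That makes 11 of 25 genes, against the 22.7% of protein-coding genes, and an H3K4me3 promoter region was also listed at 11 of 25, against 44.0%. The H3K4me3 count depends on the class: 22 of 25 had a region within 1000 bp of a start by deposited distance, where the share of protein-coding genes was 66.4%. Prdm9, the meiotic methyltransferase that marks recombination sites, had a TAF4b peak with a score of 24.8 (rank 1362) and an H3K4me3 region with a score of 101.4 (rank 9083).

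In TAF4b replicate 2, 3 of these 25 genes had a promoter peak, Men1, Kdm6a and Kdm1b, against 3.12% of protein-coding genes, while none of the 10 core and catalytic genes did. Kdm1b, which encodes a demethylase of H3K4, had peaks in both replicates at the same deposited distance of 37 bp, ranked 222 of 7861 and 456 of 848. Kdm6a had peaks in both replicates too, ranked 2480 and 729. Men1, which encodes the menin subunit of KMT2A and KMT2B complexes, was listed in replicate 2 only (rank 539 of 848). The difference between the 10 genes and these partners was not tested.

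**Figure D4:**
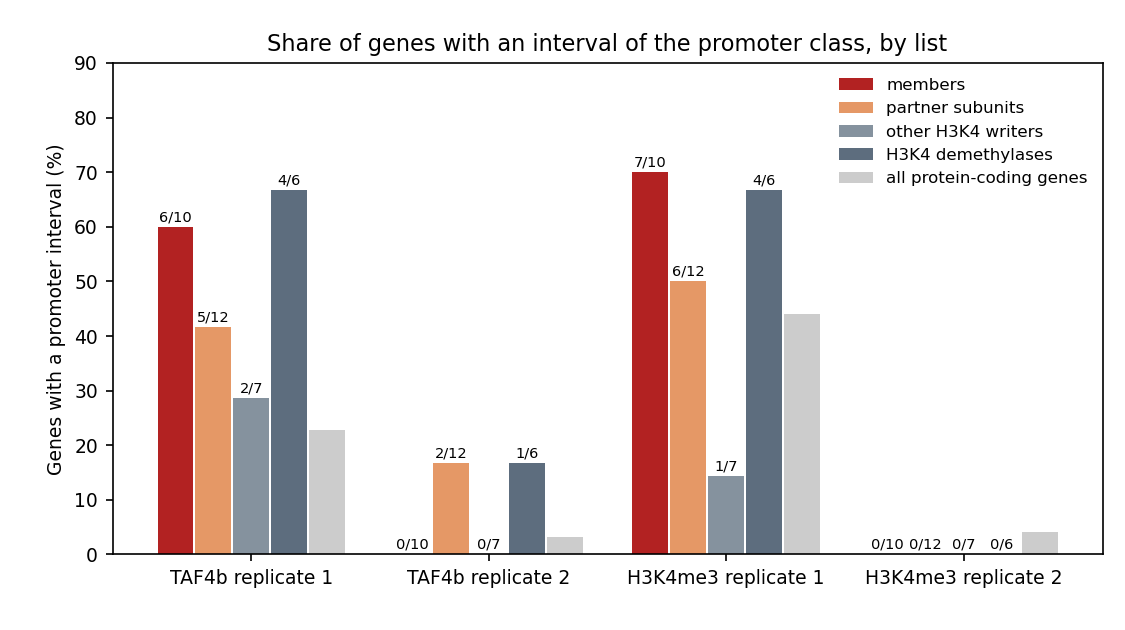
Percentage of genes with an interval of the promoter class in each list, for the 10 members, 3 lists of related genes and all protein-coding genes, with counts above the bars. In replicate 1 the members stand at 6 of 10 (TAF4b) and 7 of 10 (H3K4me3), and in replicate 2 at 0 of 10 for both.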

How the data were processed

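CUT&RUN lists of 4 libraries were used: 2 TAF4b and 2 H3K4me3. Per the submitters' processing notes, bcl2fastq 2.20, Trim Galore 0.5.0, FastQC 0.11.5, Bowtie2 2.3.0, SAMtools 1.9 and HOMER 4.10 were used with GRCm39. Per the file headers, H3K4me3 regions were annotated with annotatePeaks against Ensembl 103. Calling settings and threshold are not given in the sources used here. The deposited peak score is the authors' value, of unstated normalization. The authors' deposited column of focus ratio, a fraction, or region size was not used in any comparison, and widths are the deposited end minus start. Replicates were not pooled.

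Transcripts were named through GENCODE M39, in which 98.6% to 99.1% of nearest transcripts were found. Of the 23 member rows, 15 had a deposited distance equal, within 1 bp, to that computed on M39. The canonical start is that of the Ensembl canonical transcript. Ranks give ties the best rank. Clusters of starts are over 1000 bp apart. The sequence of 1 Kmt2b peak is not reported here. Sequences were read from GRCm39 with pysam 0.24.0; pandas 2.3.3 and NumPy 2.4.6 were used. The overlap and counting functions were tested on simulated data. Members, related genes, motifs and markers were chosen with earlier results of these data known. All 10 members are named. Of the 25 related genes, only those with a TAF4b promoter peak in either replicate are named. Genes sharing a promoter and the 3 genes most like Kmt2b were picked by rule, and not all genes sharing a promoter are named. Kmt2d's neighbouring intervals were named after their values were seen. Alternatives covered the score threshold, list size, promoter definition, overlap, background and left-out replicates.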

Additional observations from a re-analysis of the deposited data

How the results depend on the processing

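Of 30 alternative values for the main counts and shares, 19 stayed within 1.5 times the reported value and 11 did not. The 19 include replicate 2 counts of 0 that stayed 0, some of which could not have changed. With replicate 1 reduced to the size of replicate 2, members with a TAF4b promoter peak fell from 6 to 0 and those with an H3K4me3 promoter region from 7 to 2, by construction of a shorter list. Counting rows within 1000 bp of a start, or overlap with the window of an annotated start, gave 1 member for H3K4me3 replicate 2 in place of 0, and 22 related genes in place of 11 within 1000 bp for H3K4me3 replicate 1. The higher-scoring 50% of the TAF4b list gave 6 related genes in place of 11. With the H3K4me3 list of the other replicate, 0 members had an overlapping TAF4b peak in place of 5. Leaving out 1 replicate gave 0 to 6 members for TAF4b and 0 to 7 for H3K4me3. Ranking among promoter intervals only placed all 16 member promoter intervals lower in their lists, 8 of them, all H3K4me3, by over 1.5 times. No paired analysis was possible because the counts come from no test. Unknown depth limits what an interval missing from replicate 2 shows.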
